A study of Mus musculus with 8 samples.

Results

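Aminoacyl-tRNA synthetases are the enzymes that join each amino acid to its tRNA, the step that supplies the ribosome with charged tRNAs. Mammalian cells keep separate sets for the cytosol and for mitochondria, and most enzymes of either set have a nuclear gene of their own; Gars and Kars each encode both the cytosolic and the mitochondrial form. Several cytosolic enzymes sit in a multisynthetase complex held together by the scaffold proteins Aimp1, Aimp2 and Eef1e1, and the enzymes fall into structural classes, I and II, by the fold of their catalytic domain. In osteoblasts these enzymes serve the synthesis of type I collagen, a protein rich in glycine and proline, and transcription of many cytosolic synthetase genes is known to be under the integrated stress response factor ATF4. The members were the synthetase genes of both sets, listed by gene symbol: 36 of the 31053 genes in the tables, 20 for cytosolic and 16 for mitochondrial enzymes. Gars and Kars were counted among the 20 in all counts and sums, though they also encode the mitochondrial forms. All 36 are described below.

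The values were UMI counts (unique molecular identifiers, which count captured mRNA molecules) per gene and cell from droplet scRNASeq of parietal bone cells from mouse pups 4 to 5 days after birth. There were 4 wild type (WT) libraries, S1, S2, S5 and S6, and 4 libraries of pups heterozygous (Het) for the G610C substitution in Col1a2, S3, S4, S7 and S8, all on the strain labelled B6.129(FVB)-Col1a2tm1Mcbr/J. The mutation is germline, so that every cell of a Het pup carries it, and each library held cells pooled from up to 5 pups of 1 genotype. Libraries S1 to S4 were labelled as kit version 3 of the 10x reagents and S5 to S8 as kit version 3.1, with 2 WT and 2 Het libraries in each; the Cell Ranger version differs with the kit version and cannot be told apart from it. The library was the replicate throughout, n = 4 for each genotype, so the p-values measure the spread between these libraries.

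Total counts per library were between 30480239 and 85162035 UMIs, and 46420 of 68625 barcodes passed the cell filters. Osteoblasts (OBs) were the 2671 cells with at least 10 Col1a1 UMIs and at least 2 UMIs in at least 2 of Runx2, Sp7 and Ibsp, and they were staged by the share of Col1a1 in a cell's UMIs as early (eOB, under 0.75%), differentiating (dOB) and mature (mOB, over 3.5%). There were 657 WT and 418 Het mOBs, from 42 in S8 to 299 in S5. The label was set against OB markers: the median library had 11.6, 116 and 607 plain CPM (UMIs of a gene per 1000000 UMIs) of Ifitm5, a bone-restricted membrane protein gene, in eOBs, dOBs and mOBs, and 67.9, 161 and 4016 of Bglap, the osteocalcin gene. Alpl, the alkaline phosphatase gene, did not follow the stages, with medians of 418, 549 and 502. The summed level of 8 OB markers was 9.17 to 14.2% of mOB UMIs in WT and 6.64 to 10.7% in Het. This sum includes Col1a1, Runx2, Sp7 and Ibsp, which chose the cells, and so does not check the label. Haematopoietic markers reached 0.000957 to 0.0671% in WT, with 8 to 10 of 11 detected, and 0.000150 to 0.0164% in Het, with 1 to 9 detected. Ptprc, their defining marker, was at a median of 0.437 plain CPM. Erythroid markers reached 0.00891 to 0.886% in WT and 0.00436 to 0.190% in Het, and chondrocyte markers 0.154 to 0.186% and 0.128 to 0.417%. Mural and fibroblast markers were higher in both Het than in both WT libraries of each kit version: mural markers were at 0.00342 and 0.00318% in WT and 0.0130 and 0.00634% in Het in kit version 3, and at 0.0149 and 0.0117% and 0.0232 and 0.0348% in version 3.1. Fibroblast markers were at 0.00102 to 0.00290% in WT and 0.00168 to 0.00951% in Het. In kit version 3, the share of mOBs with at least 3 markers of haematopoietic, endothelial or mural cells was 17.8 and 11.7% in WT and 7.59 and 5.73% in Het. It was 0 to 1.92% in the libraries of version 3.1. The share with any UMI of 3 or more chondrocyte markers went the other way: it was 9.59 and 16.9% in the WT libraries of kit version 3, 78.5 and 43.2% in its Het libraries, and 96.3 to 99.05% in the 4 libraries of version 3.1. The summed chondrocyte marker level in mOBs of kit version 3 was 0.166 and 0.154% in WT and 0.157 and 0.128% in Het. The part of the chondrocyte, fibroblast and erythroid markers in the results was not tested, and values without the cells holding haematopoietic, endothelial or mural markers are given beside the results. The targeted gene checks no label here, since 3′ counts do not show a point mutation; Col1a2 was at 68582.9 ± 24141.9 normalised CPM in WT and 45476.3 ± 12228 in Het mOBs (SD, n = 4), a log2 difference of -0.55 (edgeR adjusted p = 0.271).

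In mOBs, 5 genes of the cytosolic list were higher in Het than in WT and none of the mitochondrial list was called in either direction. The 5 were Gars, Lars, Nars, Sars and Tars, with fitted log2 differences from 0.62 to 1.15. Of these Gars also encodes the mitochondrial form. A gene was called at a Benjamini-Hochberg adjusted p under 0.05 over the 9623 genes tested by edgeR's quasi-likelihood test, with terms for kit version and for genotype. Over all genes 0.374% were called higher in Het and 0.156% lower, against 5 higher and 0 lower of the 20 cytosolic synthetases. All 20 were tested, 17 had a positive log2 difference, and the median was 0.49, beside 0.01 over all genes. Before adjustment 14 of the 20 had a p under 0.05, each higher in Het, as had 1076 of all 9623 genes in either direction.

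The 5 called genes are protein-coding and stand apart in GRCm38 (GENCODE annotation). Gars lies at chr6:55038007-55079500 on the plus strand, Sars at chr3:108424865-108445209 and Tars at chr15:11382301-11399665, both on the minus strand. No one of these shares its strand with another annotated gene in that range. The stretches of 60 bases that follow are those of the called genes with a window on hand and of Aars, the uncalled member with 2 matches, and are shown because the promoters of many amino acid response genes hold the letters of the C/EBP-ATF response element. Windows from 250 bases before to 50 after the RefSeq start (GRCm38.p6) were on hand for 27 of the 36 members, 13 cytosolic and 14 mitochondrial, and were searched on both strands for TGATGNAA, a motif chosen with results of these data known. The capitals mark the match, which reads as its reverse complement in the first 3, and Asns, asparagine synthetase, is given as a reference gene.

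Gars: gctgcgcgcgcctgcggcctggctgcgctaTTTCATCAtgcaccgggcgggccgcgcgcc
Tars: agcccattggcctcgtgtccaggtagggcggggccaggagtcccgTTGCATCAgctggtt
Aars: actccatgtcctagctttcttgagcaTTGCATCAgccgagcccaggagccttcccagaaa
Asns: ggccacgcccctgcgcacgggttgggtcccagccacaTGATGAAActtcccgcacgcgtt
Sars: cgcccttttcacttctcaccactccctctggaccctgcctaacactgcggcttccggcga

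The Gars stretch is chr6:55037941-55038000 on the plus strand, the Tars stretch chr15:11399659-11399718 on the minus strand, the Aars stretch chr8:111033704-111033763 on the plus strand, the Asns stretch chr6:7693210-7693269 on the minus strand and the Sars stretch chr3:108445260-108445319 on the minus strand. All but that of Aars run from 60 bases to 1 base before the RefSeq start, and that of Aars runs from 138 to 79 bases before it. The GENCODE ranges differ from these starts. By GENCODE the Aars stretch lies inside its gene, which begins at 111033144. The Asns match also lies inside its GENCODE range, which reaches 7693254 on the minus strand. The match began 30 bases before the start in Gars, 15 in Tars, 112 in Aars, which held another match 10 bases after its start, and 23 in Asns. TGATGNAA was found in 5 of the 13 cytosolic windows (Aars, Gars, Iars, Tars and Yars), in 0 of the 14 mitochondrial windows, and in 3.97% of 32851 windows over all genes. Its stricter form TGATGCAA, each match of which is also a TGATGNAA match, was in 4 of these 5 (all but Gars) and in 0.895% of all windows. Of the 5 called genes Lars and Nars had no window and were not searched; of the other 3, Gars and Tars held a match and Sars did not. A match is a run of letters, not a bound site.

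The levels of the called genes are given as normalised CPM (plain CPM of the mOBs of a library, scaled with TMM factors), in the order S1, S2, S5 and S6 for WT and S3, S4, S7 and S8 for Het. Gars, which charges the tRNA of glycine, the most frequent residue of type I collagen, was at 168.2, 145.9, 96.1 and 95.4 in WT and at 341.5, 397.3, 125.5 and 182.3 in Het. Both Het libraries were above both WT libraries within each kit version, while S7 was below the WT libraries of the other kit version. The means were 126.4 ± 36.5 and 261.6 ± 128.6 (SD, n = 4) and the log2 difference was 0.95 ± 0.15 (SE, edgeR adjusted p = 0.0179). Sars, the enzyme of serine, an amino acid that cells also make into glycine, was at 67.7, 80.8, 45.3 and 50.3 in WT and at 257.5, 230.0, 57.6 and 89.1 in Het. Its kit version 3 Het libraries stood far above every WT library and S7 stood inside the WT range, above the WT libraries of its own kit version. The log2 difference, 1.15 ± 0.22 (edgeR adjusted p = 0.0394), was the largest among the synthetases in mOBs and had the largest SE of the 5 called. Lars, the leucine enzyme and a part of the multisynthetase complex, was at 79.8, 66.0, 47.1 and 47.2 in WT and at 147.5, 135.8, 72.5 and 86.4 in Het. S7 alone of its Het libraries fell below a WT library, S1. Its log2 difference was 0.84 ± 0.11 (edgeR adjusted p = 0.00637), the smallest adjusted p among the synthetases. The gene lies at chr18:42202298-42262194 and Nars at chr18:64499647-64516652, both on the minus strand.

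Nars, the asparagine enzyme, was at 131.1, 122.5, 75.4 and 70.8 in WT and at 278.9, 256.7, 95.6 and 131.0 in Het, a log2 difference of 0.84 ± 0.13 (edgeR adjusted p = 0.0179). Both Het libraries lay above both WT libraries in each kit version. Tars, the threonine enzyme, was at 96.2, 89.5, 43.5 and 52.0 in WT and at 138.3, 136.1, 76.8 and 77.0 in Het. It had the smallest difference of the 5, 0.62 ± 0.10 (edgeR adjusted p = 0.0207), and its Het libraries again lay above those of WT in each kit version. In plain CPM, without the TMM factors, all 4 Het libraries were above all 4 WT libraries for 7 of the 20 cytosolic synthetases: the 5 called genes, Iars and Rars. This held for 1.84% of the 9831 genes with at least 100 mOB UMIs, and for 0 of 11 mitochondrial synthetases. All Het libraries were below all WT libraries for 0 synthetases and 0.743% of genes. Gars, on that scale, ran from 107 to 142 in WT and from 153 to 348 in Het, and Lars from 53.1 to 67.2 and from 88.4 to 129.

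**Figure D1:**
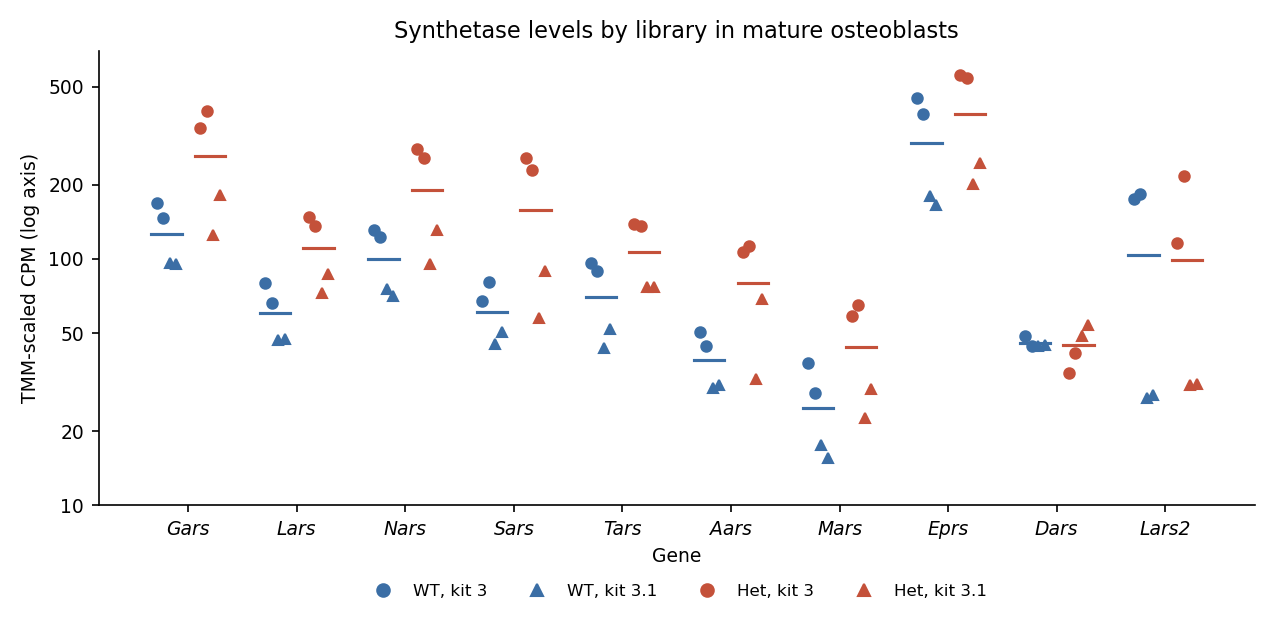
Normalised CPM (log axis) of 10 synthetases in mOBs, 1 point per library, WT in blue and Het in red, circles for kit version 3 and triangles for version 3.1, with bars at the means of 4 libraries. In Gars, Lars, Nars, Sars and Tars the red points stand above the blue points of the same shape, while those of Dars stand below blue as circles and above it as triangles, and those of the mitochondrial Lars2 stand on both sides of blue as circles.

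The other cytosolic members named here did not pass the test, and most were at higher values in Het. Aars, the alanine enzyme, whose range overlaps Exosc6 on the same strand, was at 50.6, 44.3, 29.9 and 30.7 in WT and at 106.2, 112.6, 32.4 and 68.9 in Het (log2 difference 0.90 ± 0.20, edgeR adjusted p = 0.0753). Mars, the methionine enzyme that also charges the initiator tRNA, was at 37.8, 28.7, 17.5 and 15.5 in WT and at 58.8, 64.7, 22.6 and 29.7 in Het (0.75 ± 0.15, adjusted p = 0.0574). Both genes had Het above WT within each kit version, with S7 nearest to WT. Eprs, the bifunctional enzyme of glutamate and proline, was at 449.0, 387.5, 180.7 and 164.8 in WT and at 557.0, 543.0, 200.6 and 244.4 in Het (0.38 ± 0.11, adjusted p = 0.196). Its kit versions lay further apart than its genotypes. Iars, the isoleucine enzyme, was at 53.5, 64.3, 51.4 and 49.7 in WT and at 100.9, 99.8, 51.2 and 91.8 in Het (0.58 ± 0.17, adjusted p = 0.169), with S7 inside the WT range. Cars, the cysteine enzyme, was at 29.9, 39.1, 21.9 and 20.7 in WT and at 70.3, 65.5, 21.8 and 32.4 in Het (0.63 ± 0.18, adjusted p = 0.171), again with S7 inside the WT range.

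Rars, the arginine enzyme, was at 47.7, 38.2, 24.7 and 33.3 in WT and at 54.2, 56.3, 41.0 and 36.5 in Het (0.40 ± 0.14, edgeR adjusted p = 0.280). Vars, the valine enzyme that binds elongation factor 1, was at 37.1, 41.7, 27.3 and 26.1 in WT and at 48.9, 59.5, 36.3 and 24.3 in Het (0.38 ± 0.14, adjusted p = 0.323), and its groups overlapped within kit version 3.1. Dars, the aspartate enzyme, was at 48.5, 44.3, 44.5 and 44.6 in WT and at 34.4, 41.5, 48.6 and 54.0 in Het. Its Het libraries stood below WT in kit version 3 and above it in version 3.1, with a log2 difference of -0.02 ± 0.14 (adjusted p = 0.993). The remaining 7 cytosolic members were Farsa and Farsb, the subunits of the phenylalanine enzyme, and Hars, Kars, Qars, Wars and Yars, which charge histidine, lysine, glutamine, tryptophan and tyrosine tRNAs. Their log2 differences ran from -0.06 to 0.63, 5 of 7 were positive, and their edgeR adjusted p-values ran from 0.398 to 0.995.

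Sorted by structure, 1 of 9 class I enzymes (Lars) and 4 of 10 class II enzymes (Gars, Nars, Sars and Tars) were called, with median log2 differences of 0.58 and 0.47; Eprs, which joins an enzyme of either class, was left out. Of the 8 members in the multisynthetase complex 1 was called, Lars, with a median of 0.39, and of the 12 outside it 4 were called, with a median of 0.62. These counts were not compared by a test. Both Het libraries were above both WT libraries in each kit version for 10 cytosolic and 0 mitochondrial members, and for 5.26% of all genes tested. The opposite order in each kit version held for 0 synthetases and for 5.09% of genes. The difference was larger in kit version 3 than in version 3.1 in 15 of the 20 cytosolic members, with medians of 0.52 and 0.37. For Sars it was 1.72 in kit version 3 and 0.53 in version 3.1, for Gars 1.23 and 0.65, and for Cars 0.98 and 0.23. The test of the difference between the kit versions gave edgeR adjusted p-values of 0.0908, 0.405 and 0.375 for these 3 genes, and no synthetase passed it.

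The count of 5 depended on single libraries. Without S2 edgeR called 0 cytosolic synthetases (Lars then had an adjusted p of 0.0515, and 13 members an unadjusted p under 0.05), without S1, S3 or S4 it called 1, Lars, and without S5 or S6 it called 3. Without S7 it called 9, the 5 with Aars, Cars, Iars and Mars. The calls over all genes moved too, from 51 of 9623 to 11 of 10078 without S2 and 166 of 9623 without S7. The median over the 20 members stayed between 0.43 and 0.55. Without mOBs holding haematopoietic, endothelial or mural markers the same 5 were called; mOBs with chondrocyte markers stayed in. With no kit version in the model edgeR called 0 synthetases, with 6 at an unadjusted p under 0.05, and 0 of all 9623 genes.

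**Figure D2:**
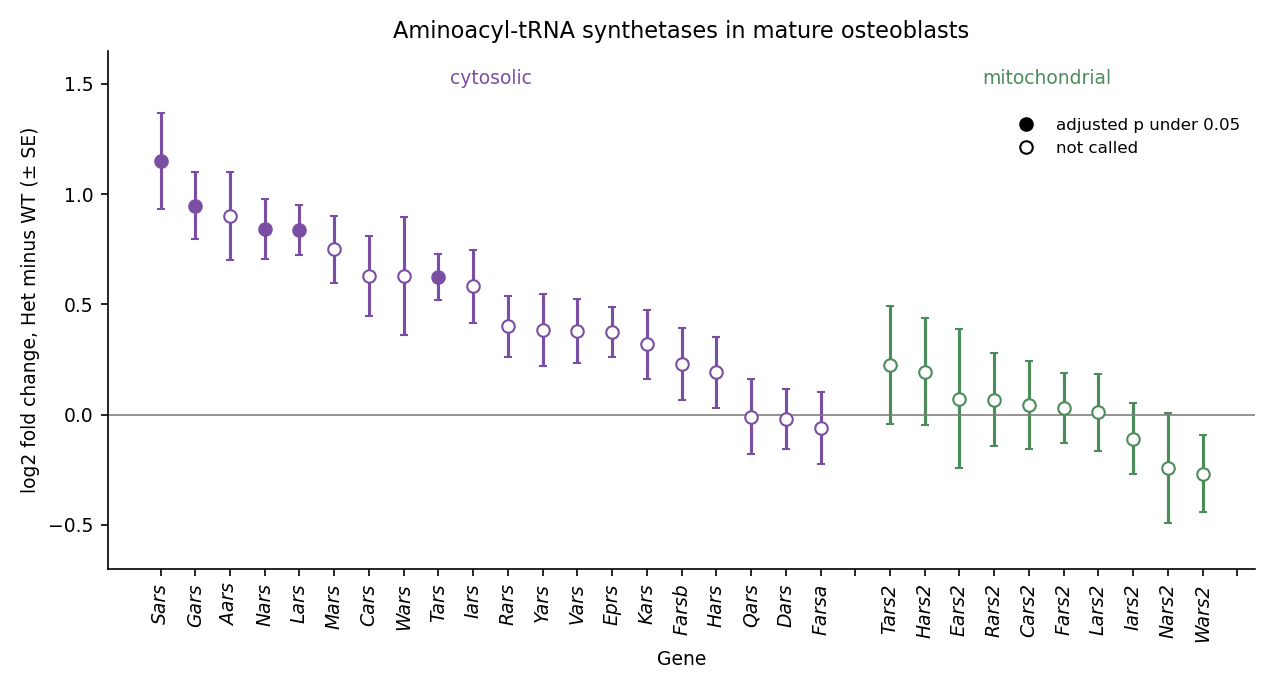
Log2 difference of Het minus WT in mOBs with its SE (edgeR, kit version in the model) for the 30 synthetases tested, cytosolic and mitochondrial. Filled points are those called at an adjusted p under 0.05: Gars, Lars, Nars, Sars and Tars, all of the cytosolic list and all to the positive side.

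No gene of the mitochondrial list was called, with Gars and Kars, which encode both forms, counted in the cytosolic list. Of its 16 members 10 were tested and 6 were too sparse to test (Aars2, Mars2, Pars2, Sars2, Vars2 and Yars2, with 21 to 101 mOB UMIs over all libraries). edgeR called 0 of the 10, DESeq2 called 0, and at an unadjusted 0.05 limit there were also 0. The median log2 difference was 0.04, with 7 of 10 positive. Lars2, which charges mitochondrial leucine tRNA, was at 174.6, 184.2, 27.1 and 27.9 normalised CPM in WT and at 116.1, 216.4, 30.7 and 31.1 in Het, a log2 difference of 0.01 ± 0.17 (edgeR adjusted p = 0.995). Its values split by kit version and not by genotype. Fars2, the mitochondrial phenylalanine enzyme, split the other way, at 12.8, 15.6, 57.4 and 66.0 in WT and at 22.2, 15.6, 61.0 and 51.3 in Het (0.03 ± 0.16, adjusted p = 0.988). Iars2, the mitochondrial isoleucine enzyme, was at 29.9, 27.8, 25.9 and 31.8 in WT and at 26.7, 20.4, 29.0 and 32.4 in Het (-0.11 ± 0.16, adjusted p = 0.876), with the groups mixed. The other 7, Cars2, Ears2, Hars2, Nars2, Rars2, Tars2 and Wars2, ran from -0.27 to 0.22 with adjusted p-values from 0.622 to 0.974.

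Summed over the 20 cytosolic genes, synthetase UMIs took 0.127, 0.116, 0.0974 and 0.0959% of mOB UMIs in the WT libraries and 0.213, 0.216, 0.127 and 0.147% in the Het libraries. S7, the lowest Het library, was barely above S1, the highest of WT, and the other Het libraries were well clear of WT. The means were 0.109 ± 0.0150% and 0.176 ± 0.0452% (SD, n = 4), a ratio of 1.61, which was 1.77 within kit version 3 and 1.42 within version 3.1. Eprs gave more of these UMIs than any other member in each library, 24.5 ± 5.12% in WT and 20.6 ± 2.12% in Het, so that it weighs on the sum. The ratio was 1.53 when the share was taken of UMIs outside the collagen genes, 1.60 without mOBs holding haematopoietic, endothelial or mural markers and 1.59 after each cell was thinned to 2000 UMIs. The median mOB held 11 to 23 cytosolic synthetase UMIs in WT libraries and 19 to 36 in Het. The 16 mitochondrial genes summed to 0.0276 ± 0.00176% in WT and 0.0281 ± 0.00395% in Het, a ratio of 1.02. The log2 ratio of the cytosolic to the mitochondrial sum was 2.28, 2.16, 1.74 and 1.72 in WT and 3.22, 2.90, 1.98 and 2.37 in Het, higher in both Het libraries of each kit version.

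**Figure D3:**
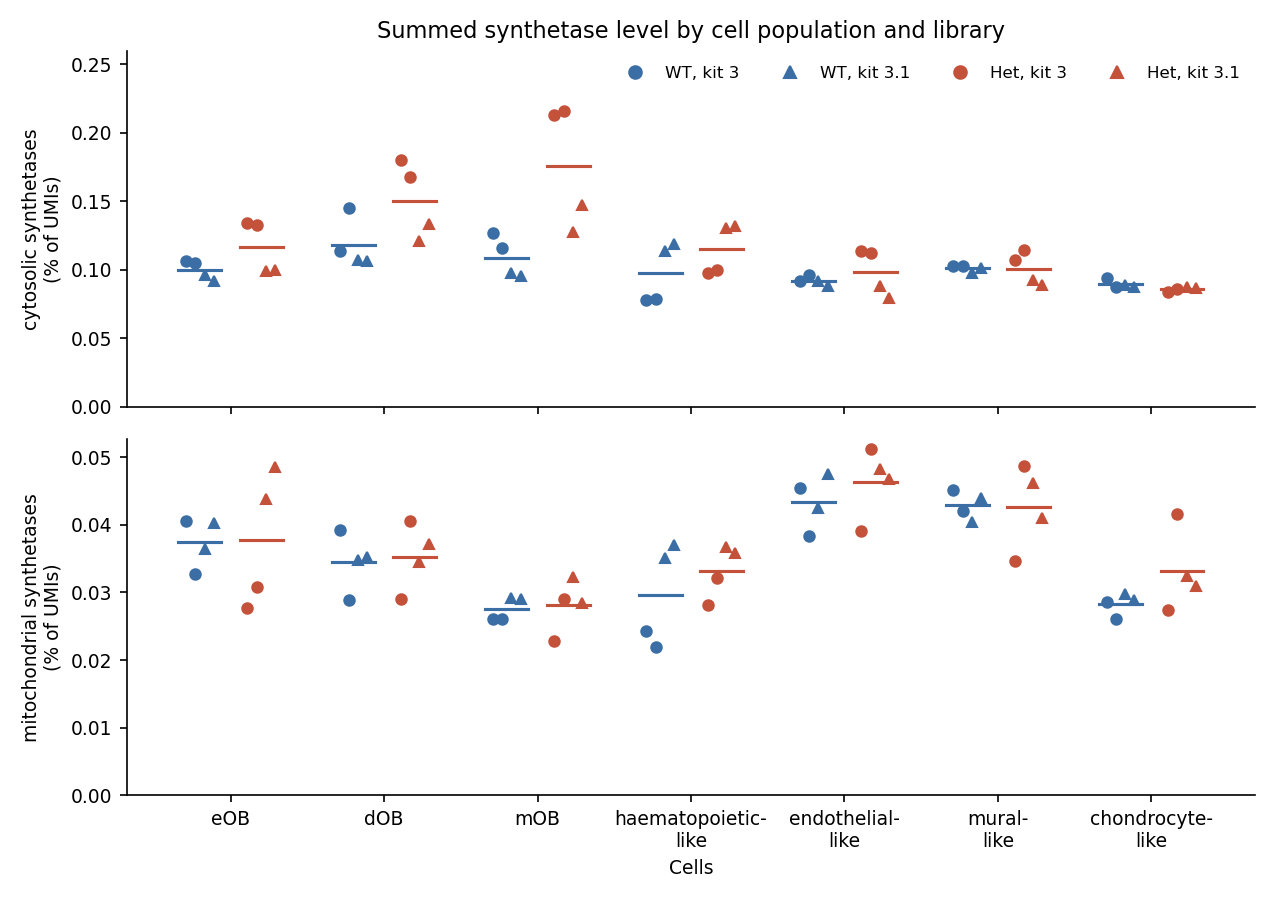
Summed cytosolic and summed mitochondrial synthetase UMIs as a percentage of all UMIs, 1 point per library, in 7 cell populations, with WT in blue, Het in red, circles for kit version 3 and triangles for version 3.1. The cytosolic sum in mOBs reaches 0.216% in Het against at most 0.127% in WT, and the mitochondrial sums of both genotypes overlap in mOBs.

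In the earlier stages no synthetase was called. In dOBs edgeR called 0 of the 20 cytosolic and 0 of 12 mitochondrial members tested, DESeq2 called 0, and 9 cytosolic members and 1 mitochondrial, Hars2, had an unadjusted p under 0.05, as had 740 of all 9857 genes. Over all genes 0% were called higher in Het and 0.0101% lower. All 20 cytosolic members had a positive log2 difference in dOBs, with a median of 0.29 beside -0.0047 over all genes, and the largest was that of Gars, 0.57 ± 0.20 (edgeR adjusted p = 0.582). In eOBs edgeR and DESeq2 called 0 and 1 member had an unadjusted p under 0.05 beside 310 of all genes, Rars (0.69 ± 0.24, edgeR adjusted p = 0.9999). The cytosolic median there was 0.07, with 14 of 20 positive, and 0% of 8118 genes were called in either direction. The summed cytosolic share was 0.118 ± 0.0183% in WT and 0.151 ± 0.0280% in Het dOBs, a ratio of 1.27, and 0.0999 ± 0.00704% and 0.117 ± 0.0196% in eOBs, a ratio of 1.17.

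The change from WT to Het was then compared between stages within libraries. For mOBs against dOBs edgeR and DESeq2 called 0 synthetases, and edgeR called 0% of all 10580 genes. At an unadjusted p under 0.05 stood 488 of all genes and 4 cytosolic members: Sars, whose change was larger in mOBs by 0.86 ± 0.23 on the log2 scale (edgeR adjusted p = 0.881), Aars by 0.64, Lars by 0.58 and Nars by 0.48, the last 3 with an adjusted p of 0.9999. Sars passed when S7 was left out. For mOBs against eOBs edgeR again called 0% of 10490 genes, and 4 cytosolic members and 351 of all genes were under an unadjusted p of 0.05 (Aars, Lars, Mars and Nars, with differences of 0.97, 0.83, 0.86 and 0.60). A larger change in mOBs than in earlier stages was therefore not shown for any single synthetase.

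Across OB maturation the cytosolic synthetases differed among themselves. Gars was higher in mOBs than in dOBs in each of the 8 libraries. In plain CPM it was at 61.8, 96.2, 87.2 and 77.3 in WT dOBs (S1, S2, S5 and S6) and at 142, 122, 108 and 107 in WT mOBs, and at 173, 156, 88.7 and 101 in Het dOBs (S3, S4, S7 and S8) and at 298, 348, 153 and 203 in Het mOBs. In eOBs it was at 47.8, 37.4, 60.8 and 49.4 in WT and at 86.9, 93.1, 50.1 and 39.0 in Het. With the library as a block, its log2 difference of mOBs over dOBs was 0.95 ± 0.18 in WT (edgeR adjusted p = 0.00630) and 1.26 ± 0.13 in Het (adjusted p = 0.000757). In WT, 3 synthetases were called higher in mOBs than in dOBs, Gars with Eprs (0.50 ± 0.15) and Iars (0.48 ± 0.11), and none lower; over all 11019 genes 9.29% were called higher and 8.97% lower. The WT median over cytosolic members was 0.12. In Het, 10 were called higher and none lower, against 6.81% and 5.42% of 9621 genes, with a cytosolic median of 0.50. They were Gars, Sars (0.95 ± 0.18), Aars (0.83 ± 0.17), Tars (0.81 ± 0.11), Iars, Mars, Nars, Lars, Cars and Eprs.

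Sars, in plain CPM, was at 77.3, 74.8, 59.6 and 68.0 in WT dOBs and at 57.0, 67.3, 51.1 and 56.6 in WT mOBs, lower in mOBs in each library. In Het it was at 130, 107, 68.8 and 56.8 in dOBs and at 224, 202, 70.2 and 99.3 in mOBs, higher in each. Lars and Aars were higher in mOBs than in dOBs in 1 of 4 WT and in 4 of 4 Het libraries on that scale. With TMM factors the WT direction turned: the log2 difference of mOBs over dOBs was 0.11 ± 0.10 for Sars, 0.09 ± 0.15 for Lars and 0.21 ± 0.13 for Aars, none of them called (edgeR adjusted p = 0.519, 0.727 and 0.316). The tests of the difference between the genotypes are those given for the stages, and none was passed. Against eOBs, 5 synthetases were called higher in WT mOBs (Gars 1.70, Tars 1.10, Eprs 0.94, Iars 0.75 and Nars 0.52 on the log2 scale), beside 8.59% of all genes, with none lower beside 6.38%, and 9 in Het mOBs, from Gars at 2.28 to Lars at 1.02, beside 7.14%, with none lower beside 5.5%. No gene of the mitochondrial list was called in any of these 4 comparisons by edgeR. Yars2 had an unadjusted edgeR p under 0.05 in Het mOBs against dOBs and Wars2 in WT, 1 member in each. The counts for mOBs against dOBs were the same with the collagen genes, 1 of which sets the stage, left out of the totals. The WT count fell to 1, Gars, without S5 or without S6, and the Het count was 4 without S3, 2 (Gars and Tars) without S4 or without S8, and 11 without S7.

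**Figure D4:**
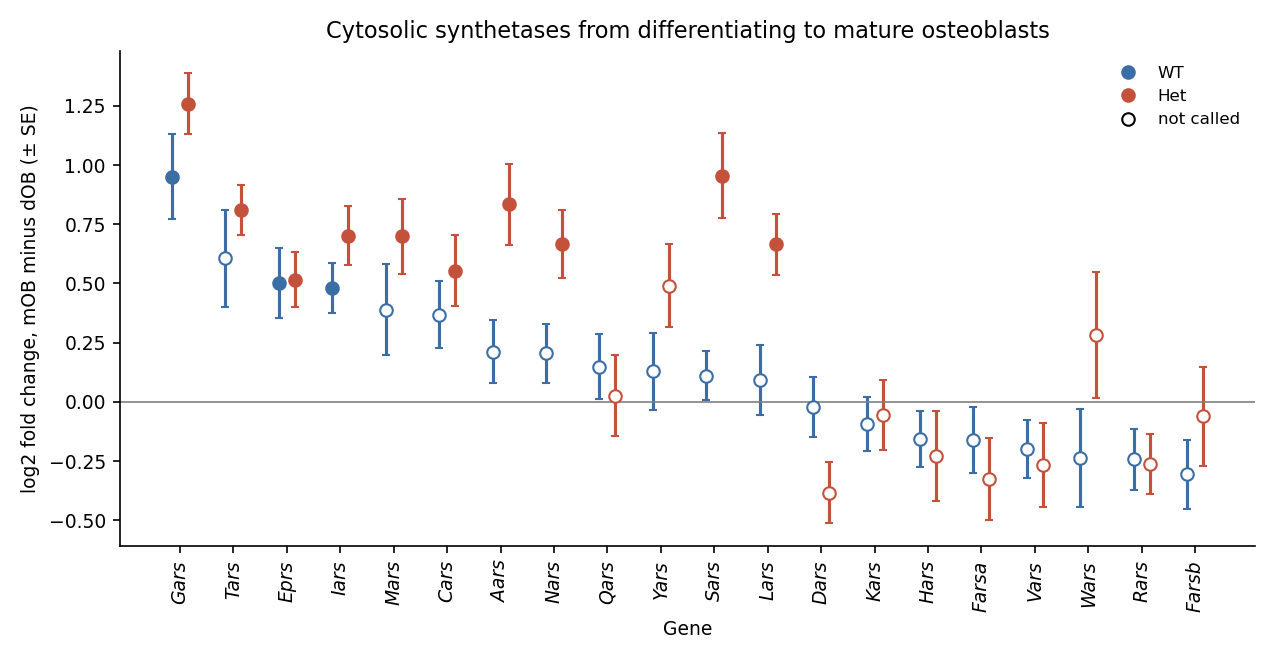
Log2 difference of mOBs over dOBs within libraries for the 20 cytosolic synthetases, in WT (blue) and Het (red), with SE (edgeR, library as a block), filled where called. Gars is filled in both genotypes, at 0.95 in WT and 1.26 in Het, while Sars is at 0.11 in WT and 0.95 in Het.

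Within the OBs of a library the summed cytosolic share was also read along the Col1a1 share, in 4 bins cut at 0.75, 3.5 and 7% of UMIs. It ran through 0.134, 0.180, 0.219 and 0.202% in S3 and through 0.133, 0.168, 0.240 and 0.194% in S4, the Het libraries of kit version 3. In S7 it ran through 0.0989, 0.121, 0.124 and 0.139% and in S8 through 0.100, 0.133, 0.130 and 0.166%. In WT it ran through 0.107, 0.114, 0.142 and 0.124% in S1, 0.0960, 0.107, 0.0972 and 0.0979% in S5 and 0.0921, 0.107, 0.0975 and 0.0936% in S6, and through 0.105, 0.145, 0.123 and 0.114% in S2. In all 8 libraries both bins above 3.5% were above the first bin, by little in S5 and S6, and the size of this rise was not compared between genotypes by a test. These 2 bins held 17 and 56 cells in S1, 21 and 56 in S2, 200 and 99 in S5 and 128 and 80 in S6. In Het they held 51 and 28 in S3, 86 and 106 in S4, 78 and 27 in S7 and 21 and 21 in S8. WT and Het mOBs were thus not matched in Col1a1 share. Col1a1 had a log2 difference of -0.45 in mOBs (edgeR adjusted p = 0.398).

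Outside the OB lineage no synthetase was called either. Cells that were not OBs were grouped where 3 or more markers of a class, and of no other class, had 2 UMIs or more, and chondrocyte-like cells by a Col2a1 share over 1% of UMIs besides, rules chosen after the files were seen. Among the endothelial-like and mural-like cells of kit version 3.1, 73.0 to 95.7% still held UMIs of 3 or more chondrocyte markers. In haematopoietic-like cells edgeR and DESeq2 called 0, with 2 cytosolic members (Aars and Tars) and 1 mitochondrial member (Vars2) at an unadjusted p under 0.05, as were 1660 of all 10814 genes, while 0.00925% of these genes were called higher and 0.0277% lower. In chondrocyte-like cells edgeR called 0 of 36 members, with 2 at an unadjusted p under 0.05, Gars (-0.18 ± 0.07) and Mars (-0.31 ± 0.10), both at lower values in Het, beside 908 of all 13857 genes, where 0.0433% of all genes were called higher and 0.0505% lower. Gars was at 65.7 ± 8.44 normalised CPM in WT and 57.1 ± 4.81 in Het chondrocyte-like cells. In endothelial-like cells, where 0.601% of 10481 genes were called higher and 0.83% lower, edgeR called 0 synthetases, with 1 cytosolic member (Hars) and 1 mitochondrial member (Hars2) at an unadjusted p under 0.05 beside 1174 of all genes. In mural-like cells, with 0.0731% called in each direction, 0 were called and 0 were under it. The ratio of the summed cytosolic share in Het to that in WT was 1.18 in haematopoietic-like, 1.07 in endothelial-like, 0.995 in mural-like and 0.961 in chondrocyte-like cells. In the same order, kit versions 3 and 3.1 gave 1.26 and 1.13, 1.20 and 0.932, 1.08 and 0.911, and 0.934 and 0.988. The populations were not matched between genotypes. In kit version 3, haematopoietic markers took 5.84 and 5.63% of haematopoietic-like UMIs in WT and 1.58 and 2.67% in Het. Chondrocyte-like cells numbered 67 and 93 in its WT libraries and 726 to 5985 in the other libraries.

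Other genes of the same pathways were read from lists chosen with earlier results of these data known. In mOBs 11 of the 18 tested amino acid supply genes (synthesis and transport) were called higher, beside 0.374% of all 9623 genes. Their median log2 difference was 1.26. Asns, which makes the asparagine that Nars attaches, was at 32.1 normalised CPM in WT and 190.9 in Het (2.34 ± 0.24, edgeR adjusted p = 0.00144). Of 14 integrated stress response genes 2 were called higher, with a median of 0.30, the transcription factor gene Atf5 (2.03 ± 0.21, edgeR adjusted p = 0.00144) and Eif4ebp1, a repressor of cap-dependent translation (1.44 ± 0.20, adjusted p = 0.00637). Atf4 itself was at 143.0 and 143.5 normalised CPM (0.04 ± 0.16, adjusted p = 0.970), and the list ran down to -0.58 for Chac1, with 10 of 14 positive. The scaffolds of the multisynthetase complex were not called: Aimp1 had a log2 difference of 0.30, Aimp2 of 0.25 and Eef1e1 of 0.50, the first and the last with an unadjusted p of 0.0340 and 0.0194. Of the enzymes that amend mitochondrial aminoacyl-tRNAs, Gatc (0.21), Qrsl1 (0.12) and Mtfmt (0.31) were not called, with unadjusted p-values from 0.255 to 0.659. Called by edgeR were 0 of 6 cytosolic elongation factor genes (median 0.17, none at an unadjusted p under 0.05), 0 of 9 mitochondrial translation factors (0.03, none), 0 of 77 mitochondrial ribosome genes (0.11, 4 of them under it) and 0 of 11 other tRNA-linked genes (0.08, none). Over all 9623 genes 1076 were under it.

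Levels of 5 mitochondrial synthetases split by kit version in every population. Lars2 was higher in the 4 libraries of kit version 3 than in the 4 of version 3.1 in all 7 cell populations, by 3.52 to 6.47 times in WT or Het means. Fars2, Nars2, Wars2 and Rars2, which charge phenylalanine, asparagine, tryptophan and arginine tRNAs in mitochondria, were lower in kit version 3 in all 7, by 3.69 to 10.2, 3.62 to 16.4, 3.94 to 16.2 and 1.99 to 4.19 times. In mOBs Wars2 was at 4.90 to 9.41 plain CPM in kit version 3 and at 40.03 to 45.99 in version 3.1, with no overlap and both genotypes in each range. Such a lack of overlap was common: of the 9831 genes with at least 100 mOB UMIs, 8.65% were higher and 40.7% lower in every kit version 3 library. Of the 11 mitochondrial members with as many UMIs, 1 was higher and 5 were lower, near these shares, so the split is not particular to them. The share of all genes split in all 7 populations was not computed. Over 3 times higher in kit version 3 in both genotypes were 0.193% of genes, Lars2 among them, and over 3 times lower 12.5%, with Fars2, Nars2 and Wars2 among them. Of the 20 cytosolic members 1, Eprs, was higher and 1, Dars, was lower in every kit version 3 library in mOBs. Without these 5 genes the other 11 mitochondrial members summed to 0.00866 ± 0.00114% of mOB UMIs in WT and 0.00945 ± 0.00216% in Het. No p-value is given, since kit version and Cell Ranger version cannot be told apart.

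**Figure D5:**
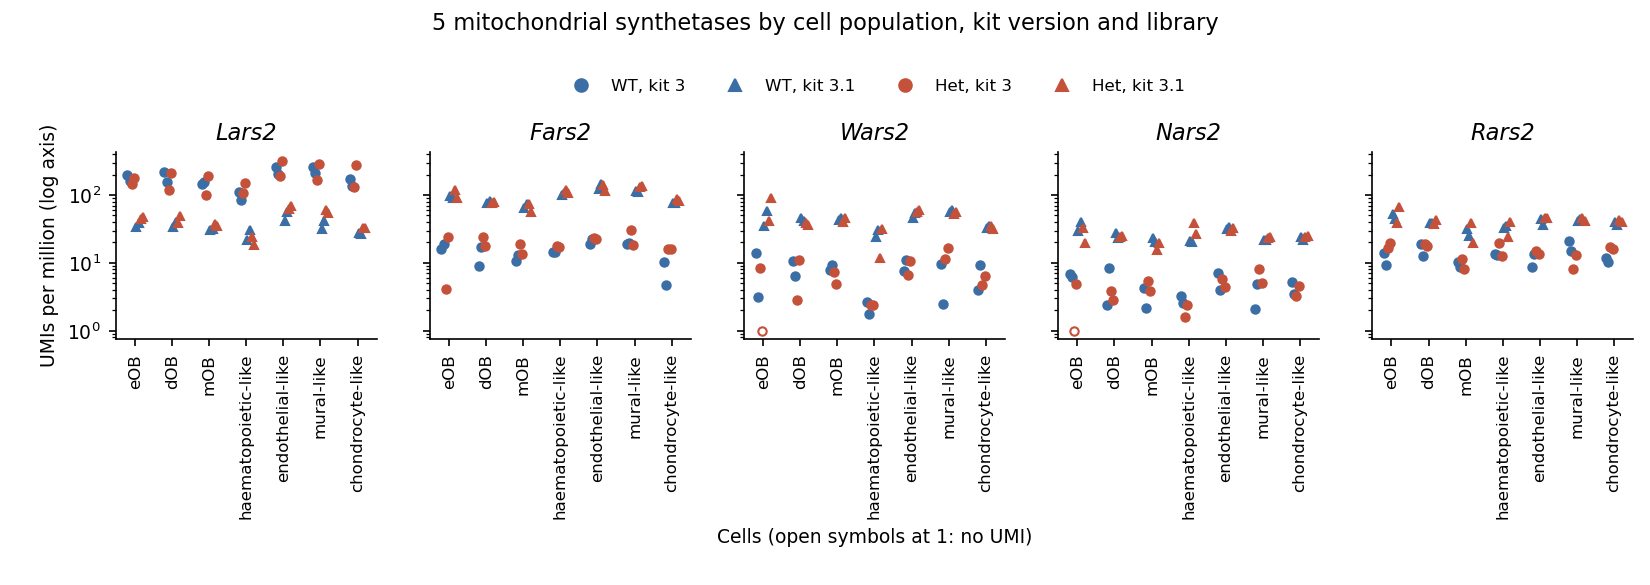
Plain CPM (log axis, UMIs of a gene per 1000000 UMIs) of Lars2, Fars2, Wars2, Nars2 and Rars2 in 7 cell populations, 1 point per library, WT in blue and Het in red, circles for kit version 3 and triangles for version 3.1. Circles stand above triangles for Lars2 and below them for the other 4 genes in all 7 populations, and open symbols at 1 stand for no UMI.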

How the data were processed

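Droplet scRNASeq (10x, 3′) was made from parietal bone cells of 4 WT and 4 Het G610C libraries. The authors aligned reads with Cell Ranger (5.0.0 and 6.0.1, build mm10, per the submitters' notes) and deposited tables of unnormalised UMI counts, which were used as deposited; version 5.0.0 goes with kit version 3 and 6.0.1 with 3.1. Cells with at least 500 genes and under 10% mitochondrial UMIs were kept. OBs were chosen and staged by the Col1a1, Runx2, Sp7 and Ibsp limits given above, the stage limits being those of the study and the UMI limits a choice made here. No doublet caller was run; mOBs holding at least 3 markers of haematopoietic, endothelial or mural cells were left out as an alternative. Of the kept cells 244 barcodes occurred in more than 1 library, and 0 among OBs.

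Counts were summed per library and stage (from 664702 mOB UMIs in S8 to 4805858 in S6) and fitted with edgeR 4.0.16 (R 4.3.3, limma 3.58.1; TMM factors, filterByExpr, quasi-likelihood test) with kit version and genotype as terms, or library and stage. Stages within a genotype used the library as a block. Where the study tested cells, libraries were tested here. P-values were adjusted over all genes tested (Benjamini-Hochberg), and genes were called at an adjusted p under 0.05. The script was tested on simulated counts. DESeq2 1.42.0, upper-quartile factors, no low-count filter, no kit version, a replicate block, other OB, stage and cell limits, thinning and leaving out each library were the alternatives. Summed levels over other totals were added after the data were seen. Counting intervals are not given, since spread between libraries is.

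The rule for the members uses gene symbols only, but this set of genes and the lists were chosen with earlier results of these data known. Values are given for members called in any of the main fits over all genes and for the 3 uncalled members of each set with the highest mean level in mOBs, the others by ranges. Yars, called in Het mOBs against dOBs without a low-count filter and without S7, is among those given by ranges. Tables were made with Python 3.11.15 (numpy 2.4.6, pandas 2.3.3, scipy 1.17.1) and figures with matplotlib 3.10.9. Coordinates are from GENCODE (GRCm38) and promoter windows from RefSeq; protein sequences were not used here.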

Additional observations from a re-analysis of the deposited data

Results flagged for a closer look

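Dars, the aspartate enzyme, was at 48.5 normalised CPM in the WT library S1 in mOBs while the other 3 WT libraries were at 44.3 to 44.6. The gap to the nearest library was 0.938 of the whole range of the group, above Dixon's 95% critical value for 4 libraries. It was 1 of 60 groups of 4 libraries examined, and chance alone flags about 1 group in 20. The WT libraries of Dars lay so close to each other that this gap is small beside the Het range of 34.4 to 54.0.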

How the results depend on the processing

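Against 5 cytosolic synthetases called in mOBs, DESeq2 called 8 (Aars, Eprs and Mars added; 134 of all 18427 genes, against 51 of 9623), edgeR without a low-count filter 9 (536 of 18427 genes), with cells thinned to 2000 UMIs 1 (Gars, with 8 members left to test), with no kit version in the model 0, and between 0 and 9 with a library left out. Whether the replicate numbers in the titles pair the libraries is not known. Deviations of same-numbered WT and Het libraries correlated at -0.0507 in kit version 3 and -0.0287 in version 3.1. With 2 libraries per genotype and kit version, each kit version gives only 1 such value, which cannot decide the pairing. With the replicate block 1 was called, Lars. The cytosolic median of 0.49 was 0.43 to 0.55 with a library left out. With thinned cells it was 0.70, over 7 of the 20 genes only, the 5 called ones with Eprs and Iars, so that it cannot be set against 0.49. The mitochondrial median of 0.04 was 0.136 in mOBs over 5% Col1a1, 0.331 with thinned cells, where it is the value of 1 gene, Lars2, -0.0450 with no kit version and -0.0552 to 0.0596 with a library left out; 0 mitochondrial members were called under any of these. Without a low-count filter 1 synthetase, Gars, was called in dOBs and 1, Sars, had a different change in mOBs than in dOBs, a count that was 0 to 1 with a library left out. For mOBs against dOBs, WT counts were 5 with eOBs in place of dOBs and 1 to 3 with a library left out, and Het counts 2 to 11. In refits of single synthetases in mOBs 499 values kept their side of the threshold, 36 lost a call, 13 gained one and 0 reversed a called direction. Lars lost its call without S2, with no kit version in the model and with thinned cells. The cause of these shifts was not tested. Depth limits 6 mitochondrial members, with at most 101 UMIs in mOBs, and S8 with 42 mOBs.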
